A study of Mus musculus with 9 samples.

Results

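The interferon regulatory factors (IRFs) are a family of transcription factors that control interferon and inflammatory genes. The genes described here were chosen by symbol: Irf1, Irf2, Irf3, Irf4, Irf5, Irf7, Irf8 and Irf9, with Irf2bp2 and Irf2bpl, which encode proteins of the IRF2-binding family. They make up 10 of the 24061 gene symbols in the RNA-seq count table. Polyadenylated RNA was sequenced from bone-marrow-derived macrophages (BMDMs), which are primary macrophages grown from the marrow of female C57BL/6J mice. The cells spent 7 days in L-cell conditioned medium, a source of macrophage growth factor, followed by a day without serum. Groups were Veh (DMSO alone), LPS (DMSO for 3 hr, then 10 ng/mL bacterial lipopolysaccharide for 2 hr) and T0+LPS (500 nM of the liver X receptor (LXR) agonist T0901317, or T0, for 3 hr, then the same LPS with T0 still present). All 3 groups share the strain, the culture and the DMSO, and each holds 3 libraries, which are taken as individually differentiated cultures, so that the p-values measure the spread between those cultures. The time at which Veh cells were collected for RNA is not given in the sources used here, so LPS and culture time cannot be told apart in comparisons with Veh.

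IRF proteins share an N-terminal domain that binds DNA at sites with a GAAA core, and they differ in what activates them and in their partners. LPS is sensed by the receptor TLR4, which signals through the adaptors MyD88 and TRIF. The TRIF branch leads to kinases that phosphorylate IRF3 and IRF7, which then drive interferon-β, whereas IRF5 and IRF1 engage MyD88. Secreted interferon acts on its receptor and assembles the complex ISGF3, which binds DNA through IRF9, while IRF8 and IRF4 bind jointly with the macrophage factor PU.1.

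Total counts per library ranged from 13299044 to 16467983, with medians of 15086484 in Veh, 13661218 in LPS and 15320506 in T0+LPS. At that depth, 3 reads in a library corresponded to between 0.182 and 0.226 CPM of its total, a floor that covers counting error only. Levels below are CPM, counts relative to library size after TMM scaling for library composition. Of the macrophage markers, 6 of the 7 in the table had a mean of at least 1 CPM, led by Lyz2 at 21650 CPM. Summed, they were between 30550 and 32650 CPM in Veh, between 33250 and 34620 in LPS and between 35460 and 37500 in T0+LPS. These sums rest on TMM factors of 1.1361 to 1.1445 in Veh, 0.9322 to 0.948 in LPS and 0.9309 to 0.9378 in T0+LPS. In LPS against Veh, Mertk and Fcgr1 of that list fell, by 0.81 and 0.84 on the log2 scale. Csf1r (0.26) and Lyz2 (0.12) were called higher, and both turned negative with library totals (-0.03 and -0.16). With library totals Lyz2 was called lower (adjusted p = 0.0026), as were Cd68 (-0.26, adjusted p = 1.9e-05) and Mpeg1 (-0.22, adjusted p = 2.8e-05). The higher call of Lyz2 was also lost without LPS replicate 2 and without Veh replicate 2 or 3. Mertk rose by 1.06 in T0+LPS against LPS (adjusted p = 2.9e-08). Lyz2 (0.15, adjusted p = 0.064) and Fcgr1 (0.33, adjusted p = 0.11) were not called there, but both were without the filter on low counts. Lyz2 was also called with DESeq2 (adjusted p = 0.035) and limma (0.048). In T0+LPS against Veh, Csf1r, Lyz2 and Mertk were called higher and Fcgr1 lower. With library totals those higher calls were lost, and Cd68 and Mpeg1 were called lower. Of the markers of other cells, 1 of 6 neutrophil genes (S100a8, 1.63 CPM), 1 of 5 B-cell genes (Cd79b, 1.37 CPM) and 2 of 7 dendritic-cell genes reached 1 CPM. The dendritic pair was Xcr1 and Bst2, the latter at 161 CPM and also known as an interferon-inducible gene of macrophages. Summed per library, the neutrophil genes were between 1.28 and 1.97 CPM in Veh, between 2.93 and 3.93 in LPS and between 2.30 and 2.82 in T0+LPS. The dendritic sums were between 129 and 170 CPM in Veh, between 140 and 196 in LPS and between 168 and 192 in T0+LPS, and the B-cell sums were between 0.836 and 2.45 CPM over all libraries. At these low levels S100a8 and Xcr1 were called higher with LPS, at 1.22 and 2.90 on the log2 scale, and Cd79b lower, at -0.66. Xcr1, at 0.248 CPM in Veh, was tested only through its LPS libraries. In T0+LPS against Veh, S100a8, Xcr1 and Bst2 were called higher and Cd79b lower. No gene of the T and NK cell, stroma or erythroid lists, with 5 genes each in the table, reached 1 CPM.

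A marker with 0 reads speaks to the cells only where the counting could reach it, since reads on bases that several rows share were not counted. Siglech, Pax5, Cd3e, Dcn and Pdgfra had 0 reads on between 351 and 2397 countable bases. Itgam and S100a9 had 3 countable bases each, Clec9a and Hbb-bt 0, Hba-a1 6, Hba-a2 14 and Hbb-bs 9, so their 0 reads do not show that these genes were silent. The labels of the treatments were reflected in 5 of 5 LPS-response genes called higher in LPS than in Veh, where 32.9% of all genes tested were higher. Likewise, 6 of 6 LXR target genes were called higher in T0+LPS than in LPS, where 1.35% of all genes were. Tnf (mean of 0.0813 CPM in Veh) passed the filter on low counts only through the LPS libraries, and if called it could only be called higher. Ptgs2 and Cxcl1 (0.374 and 0.428 CPM in Veh replicate 1) also needed LPS libraries to pass.

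The same limit applied to the members. A gene with several RefSeq transcripts was read only on the bases that belong to a single row. Irf2, Irf4, Irf8, Irf2bp2 and Irf2bpl have 1 row each and are counted over their whole length. The other 5 members have several rows: Irf1 could be read on 1222 bases, Irf5 on 352, Irf9 on 229 and Irf3 on 158, and Irf7 on 0 bases of its 3 rows. Irf7, the IRF that amplifies type I interferon, therefore held 0 reads in all 9 libraries, and its expression could not be measured.

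After 2 hr of LPS, the family had 1 gene that rose and 5 that fell. Irf1 rose, and Irf8, Irf4, Irf2, Irf2bp2 and Irf2bpl fell (adjusted p under 0.05, from the quasi-likelihood F-test of edgeR and adjusted by Benjamini-Hochberg over the genes tested). Of the 8 members that passed the filter on low counts, 1 was called higher, where 32.9% of all 9559 genes tested were higher, and 5 were called lower, where 31.2% of all genes were lower. The number of lower calls among the members was thus above that background, and the number of higher calls was below it, though with 8 genes the difference was not tested. The members' median log2 fold change was -0.40, beside -0.0019 over all genes. It was -0.17 without LPS replicate 1 and -0.22 without LPS replicate 3, fits in which Irf9 was also tested, and -0.68 with library totals, with 1 member higher and 5 lower each time. Scaling by library totals in place of TMM factors moved the median of all genes to -0.28 and the calls over all genes from 3148 higher and 2981 lower to 1694 and 5411.

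**Figure D1:**
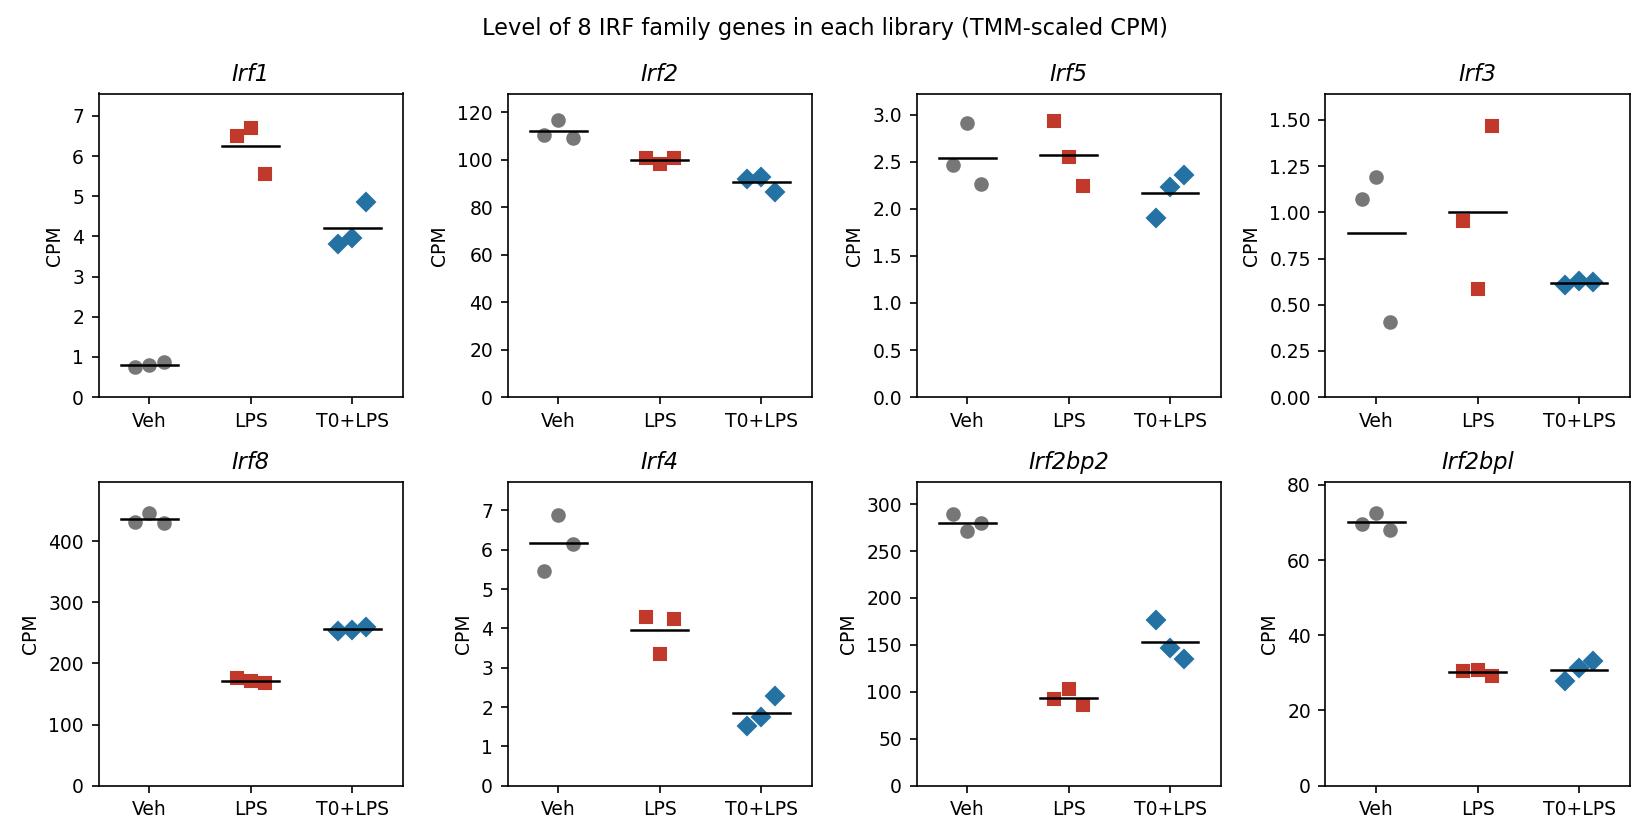
Level of 8 members (without Irf7, which had no reads, and Irf9) in CPM (TMM-scaled) on a y axis of its own for each gene, with 1 point per library and a line at the mean of the 3 libraries of Veh, LPS and T0+LPS. Irf8 moves from 436 CPM in Veh to 172 in LPS and 256 in T0+LPS, whereas Irf1 moves from 0.804 to 6.26 and 4.21.

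Irf8 encodes the IRF that, with PU.1, directs development of monocytes and dendritic cells. It lies at chr8:120736376-120756692 on the plus strand of mm10, with 9 exons and 2827 counted bases that include coding sequence and UTRs. Its level was 432, 446 and 430.4 CPM in the Veh libraries and 177, 171 and 168 CPM in the LPS libraries. All Veh libraries thus lay far above all LPS libraries, with means of 436 ± 8.75 (SD, n = 3) and 172 ± 4.76 CPM (SD, n = 3). LPS left Irf8 at 39.4% of its Veh level, a log2 fold change of -1.34 (SE 0.04, adjusted p = 5.8e-14). In bulk samples such as these, fewer cells of a type and less RNA per cell cannot be told apart.

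Irf4, the close relative of Irf8 that is linked to alternatively activated macrophages, was scarce. It lies at chr13:30749258-30766927 on the plus strand. The Veh libraries held 5.46, 6.88 and 6.14 CPM and the LPS libraries 4.28, 3.35 and 4.25 CPM. These groups did not overlap, and Irf4 fell with LPS by 0.63 on the log2 scale (SE 0.16, adjusted p = 0.0022).

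Irf1 encodes an activator of interferon-γ-responsive and antiviral genes, and Irf2 a factor that competes with IRF1 for the same DNA sites. Irf1 lies at chr11:53770014-53778374 on the plus strand. It was read at 0.749, 0.794 and 0.869 CPM in Veh and at 6.50, 6.70 and 5.56 CPM in LPS. Each LPS library was several times above each Veh library, and Irf1 rose by 2.95 on the log2 scale (SE 0.20, adjusted p = 1.7e-09), a fitted fold of 7.74. These levels count only the 1222 bases that could be assigned and cannot be set against those of other members. Irf2, at chr8:46739745-46847458 on the plus strand, was read at 110.5, 117 and 109 CPM in Veh and at 101, 98.2 and 101 CPM in LPS. The decrease was narrow but cleared the spread of the libraries, with a log2 fold change of -0.16 (SE 0.05, adjusted p = 0.0059) and means of 112 ± 4.12 (SD, n = 3) and 99.9 ± 1.495 CPM (SD, n = 3).

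The promoters of Irf1, which rose with LPS, Irf8, which fell to less than 40% of its Veh level, and Irf2, which changed least among the called members, are shown as the 250 bases before each start. They come from RefSeq, build GRCm38.p6, plus strand, and run 5′ to 3′. Their positions are chr11:53769764-53770013 for Irf1, chr8:120736108-120736357 for Irf8 and chr8:46739495-46739744 for Irf2. Capitals mark matches to the IRF core AANNGAAA, to the interferon-γ-activated sequence (GAS) TTCNNNGAA or to the κB consensus, searched on both strands. Irf1, Irf8 and Irf2 are shown because they were called in LPS against Veh and hold a match. Irf4, Irf2bp2 and Irf2bpl were also called, but their windows hold none.
Irf1: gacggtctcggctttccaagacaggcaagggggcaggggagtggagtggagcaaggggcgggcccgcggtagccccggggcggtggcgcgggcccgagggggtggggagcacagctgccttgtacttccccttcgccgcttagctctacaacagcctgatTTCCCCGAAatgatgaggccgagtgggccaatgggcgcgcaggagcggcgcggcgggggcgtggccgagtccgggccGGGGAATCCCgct
Irf8: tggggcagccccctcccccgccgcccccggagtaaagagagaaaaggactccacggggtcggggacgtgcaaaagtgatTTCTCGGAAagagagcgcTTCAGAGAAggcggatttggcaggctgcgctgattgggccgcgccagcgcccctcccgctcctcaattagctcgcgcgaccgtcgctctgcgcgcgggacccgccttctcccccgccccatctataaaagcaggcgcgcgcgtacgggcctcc
Irf2: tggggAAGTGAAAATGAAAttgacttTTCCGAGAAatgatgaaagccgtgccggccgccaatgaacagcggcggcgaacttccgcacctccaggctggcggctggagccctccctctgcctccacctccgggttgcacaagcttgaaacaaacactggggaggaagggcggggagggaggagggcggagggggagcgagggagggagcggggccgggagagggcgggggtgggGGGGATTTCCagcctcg
The Irf1 stretch holds 1 GAS match, TTCCCCGAA, from 90 to 82 bases before the start, and 1 κB match, GGGGAATCCC, from 13 to 4 bases before it. Irf8 holds 2 GAS matches, TTCTCGGAA and TTCAGAGAA, which begin 171 and 153 bases before the RefSeq start, itself upstream of the start of the counted row. Irf2 holds 2 IRF core matches that overlap each other, AAGTGAAA and AAATGAAA, then a GAS match, TTCCGAGAA, and a κB match, GGGGATTTCC. All 10 members matched a RefSeq promoter by symbol, with 13 windows of 300 bases that reach from 250 bases before to 50 bases after a start. The further windows of Irf1 (chr11:53770223-53770522) and Irf8 (chr8:120738389-120738688) held no match. That Irf1 window holds the start of the row with 312 of the 464 reads of Irf1. Among the members, 1 had an IRF core, 3 a GAS and 2 a κB match in any of their windows, and 7 had none of these letters. Over all 32851 windows of that length, 23.9% held the IRF core, 8.30% a GAS match and 8.46% a κB match. These shares are per window, while the members are counted per gene. A match describes the letters only, and binding at these places was not measured here.

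Irf3, Irf5 and Irf9 were read on few bases and at low levels. IRF3 is the latent factor that TBK1 and IKKε phosphorylate downstream of TRIF, and its gene lies at chr7:44997648-45002848 on the plus strand, where 158 UTR bases were counted. Its 3 Veh libraries held 1.07, 1.19 and 0.406 CPM and its 3 LPS libraries 0.952, 0.583 and 1.47 CPM. The groups overlapped, with a log2 fold change of 0.17 (95% interval -0.68 to 1.03, adjusted p = 0.72) that turned to -0.11 with library totals, to -0.18 without Veh replicate 3 and to -0.22 without LPS replicate 3. The interval is wide, and Irf3 held 110 reads over all 9 libraries.

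IRF5 is activated downstream of MyD88 and drives inflammatory cytokine genes. Its gene, at chr6:29526625-29537320 on the plus strand, was read at 2.46, 2.91 and 2.26 CPM in Veh and at 2.93, 2.55 and 2.24 CPM in LPS. Summed over its rows, Irf5 overlapped between the groups, with a log2 fold change of 0.03 (95% interval -0.40 to 0.45, adjusted p = 0.92) that was -0.26 with library totals, -0.05 without Veh replicate 3 and -0.08 without LPS replicate 1. Irf9, the DNA-binding subunit of ISGF3 at chr14:55603985-55610030, did not pass the filter for this comparison. Its levels were 0.374, 0.728 and 0.638 CPM in Veh and 0.555, 0.656 and 0.618 CPM in LPS, so the LPS libraries lay within the range of Veh.

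Both genes of IRF2-binding proteins among the members fell, and Irf2bp2 had the steepest decrease of the family. IRF2BP2 is a corepressor first known for binding IRF2, and its gene lies at chr8:126588296-126593436 on the minus strand. Veh libraries held 289, 272 and 279.5 CPM, and LPS libraries held 91.9, 103 and 85.6 CPM. With LPS, Irf2bp2 was at 33.4% of its Veh level and had a log2 fold change of -1.58 (SE 0.06, adjusted p = 6.1e-13). In GENCODE, 1039 bases of its 3533-base exon are also exon of the antisense gene Gm26759, and since the library kit does not mark strand, reads of both cannot be told apart. Irf2bpl, a related gene with a single exon at chr12:86880703-86884814 on the minus strand, went from 69.5, 72.6 and 68.05 CPM to 30.5, 30.9 and 29.2 CPM. All LPS libraries were below all Veh libraries, and the log2 fold change was -1.21 (SE 0.06, adjusted p = 1.1e-11).

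Irf2bp1, a relative of Irf2bp2 and Irf2bpl outside the chosen members, was at 53.6 ± 1.51 CPM (SD, n = 3) in Veh and 47.5 ± 1.59 CPM (SD, n = 3) in LPS, a log2 fold change of -0.17 (adjusted p = 0.011) with edgeR. That call was lost with DESeq2 (adjusted p = 0.063), without Veh replicate 2 (0.051) and without LPS replicate 1 (0.055), and the highest adjusted p over the alternatives was 0.18.

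T0 given before LPS moved 3 members relative to LPS alone: Irf8 and Irf2bp2 rose, and Irf4 fell. Of the 7 members tested, 2 were called higher, where 1.35% of all 9348 genes tested were higher, and 1 was called lower, where 1.83% were lower. The shares over all genes rest on 126 higher and 171 lower calls. Both counts moved by more than 1.5 times without the filter or with a library left out, as given under the processing. These shares of the members were above the background of a comparison in which few genes changed, and the difference was not tested. The members' median log2 fold change was -0.14, beside 0.0028 over all genes, and library totals gave the same 2 and 1 calls. With a library left out the median was between -0.21 (without T0+LPS replicate 2) and -0.05 (without LPS replicate 1), in fits that tested 8 or 9 members.

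Irf8 stood at 254, 254 and 260.4 CPM in the T0+LPS libraries, every one of them above the LPS libraries and below the Veh libraries. Its mean of 256 ± 3.65 CPM (SD, n = 3) was 58.7% of the Veh level. Relative to LPS, Irf8 rose by 0.58 on the log2 scale (SE 0.05, adjusted p = 1.2e-06), a fitted fold of 1.49 that was larger than the spread between replicates. With each library left out in turn the log2 value was between 0.56 and 0.60.

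Irf2bp2 showed the same order of groups with more scatter. Its T0+LPS libraries held 177, 147 and 135 CPM, with a mean of 153 ± 21.5 CPM (SD, n = 3), or 54.5% of Veh. Even the lowest of them exceeded the highest LPS library, at 103 CPM. The increase over LPS was 0.71 on the log2 scale (SE 0.09, adjusted p = 0.00024), a fitted fold of 1.63, and it lay between 0.59 and 0.79 with each library left out.

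Irf4 went the other way. Its T0+LPS libraries held 1.52, 1.74 and 2.29 CPM, all below the LPS libraries, with a mean of 1.85 ± 0.395 CPM (SD, n = 3) that was 30.1% of the Veh level. The log2 fold change against LPS was -1.08 (SE 0.22, adjusted p = 0.0097). The call rests on few reads, between 20 and 33 in each T0+LPS library and between 46 and 55 in each LPS library. It was lost without LPS replicate 1 (-1.02, adjusted p = 0.0596) and without T0+LPS replicate 2 (-1.03, adjusted p = 0.0517), and over all alternatives the adjusted p ranged from 0.000111 to 0.0596.

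Irf1 lay lower in T0+LPS, at 3.81, 3.97 and 4.86 CPM, than in any LPS library, but missed the threshold. The log2 difference was -0.57 (95% interval -0.91 to -0.23, adjusted p = 0.072). Without the filter on low counts Irf1 was called (adjusted p = 0.0257), as it was in a fit to all 9 libraries (adjusted p = 0.0472), and over all alternatives the adjusted p ranged from 0.0257 to 0.257. Irf2 was at 92.0, 92.9 and 86.5 CPM, also below every LPS library, with a log2 difference of -0.14 (95% interval -0.25 to -0.03, adjusted p = 0.19).

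Irf2bpl in T0+LPS, at 27.95, 31.4 and 33.2 CPM, overlapped with LPS, and its log2 difference was 0.03 (95% interval -0.13 to 0.19, adjusted p = 0.92), or -0.02 without T0+LPS replicate 3. Irf5, at 1.90, 2.23 and 2.36 CPM, also overlapped, with a log2 difference of -0.24 (95% interval -0.70 to 0.22, adjusted p = 0.71). Irf3 (0.609, 0.627 and 0.624 CPM) and Irf9 (0.457, 0.976 and 0.971 CPM) did not pass the filter for this comparison. In the left-out fits that tested Irf3, its log2 difference was between -0.96 and -0.66, and it was not called (adjusted p from 0.28 to 0.68). Irf2bp1 had a log2 difference of 0.10 (adjusted p = 0.55).

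**Figure D2:**
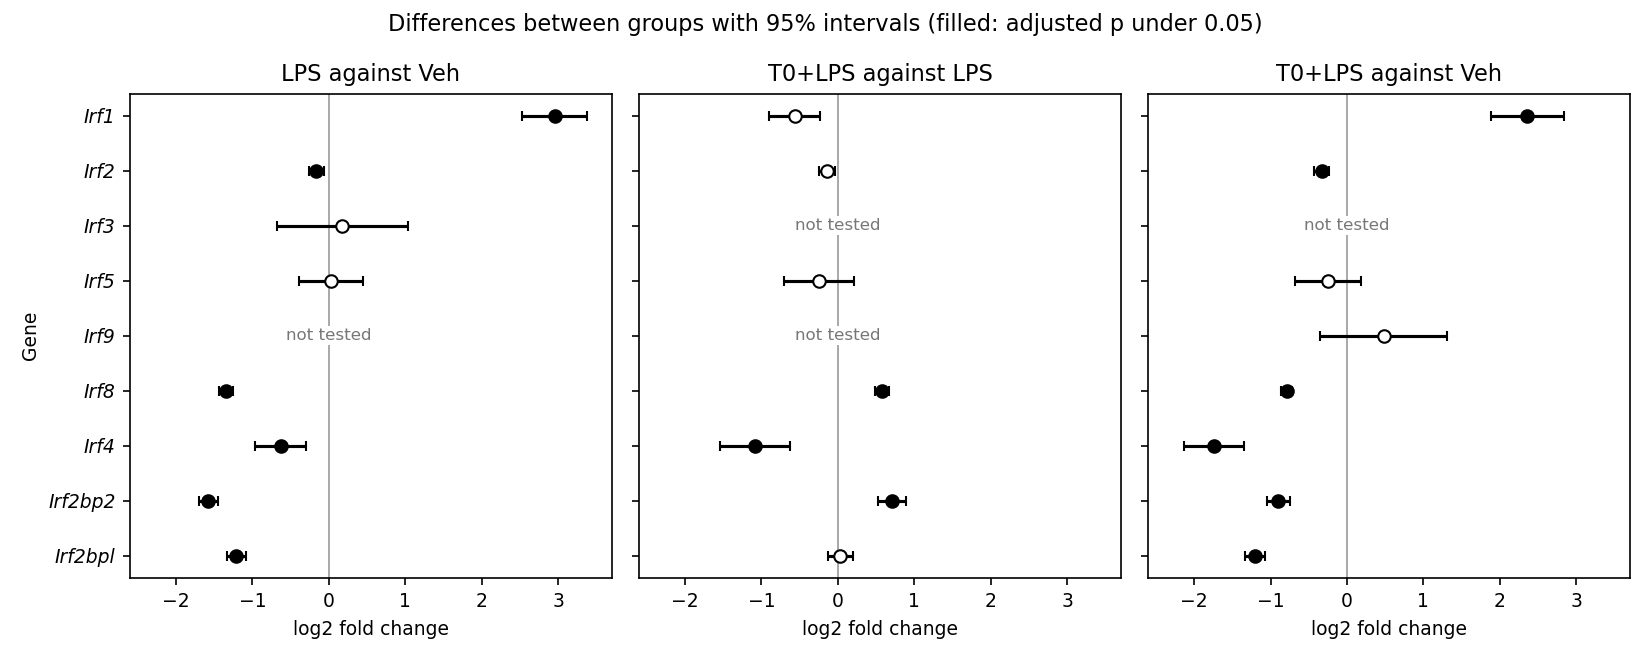
Log2 fold change of each tested member, 1 point per gene with a bar for the 95% interval, in LPS against Veh, T0+LPS against LPS and T0+LPS against Veh, filled where the adjusted p from edgeR was under 0.05. Irf8 and Irf2bp2 sit at -1.34 and -1.58 in the first comparison and at 0.58 and 0.71 in the second, while Irf3 (0.17) and Irf5 (0.03) in the first comparison turn negative with library totals.

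T0+LPS was also set directly against Veh, in a comparison that shares its libraries with both others and adds no independent evidence to them. Of 8 members tested, 1 was called higher, where 32.4% of all 9636 genes were higher, and 5 were called lower, where 32.9% were lower. Without Veh replicate 3, Irf3 was tested as well and called lower (-0.87, adjusted p = 0.042), but its adjusted p was between 0.36 and 0.37 in the other 3 left-out fits that tested it. As with LPS alone, the lower calls were above the background and the higher calls below it. Irf1 had a log2 fold change of 2.36 (adjusted p = 1.3e-07), beside 2.95 for LPS against Veh. For Irf8 the value was -0.79 (adjusted p = 5.7e-12) beside -1.34, and for Irf2bp2 it was -0.90 (adjusted p = 1.2e-08) beside -1.58. For Irf4 it was -1.74 (adjusted p = 5.9e-07) beside -0.63, for Irf2 -0.33 (adjusted p = 1.1e-05) beside -0.16, and for Irf2bpl -1.20 (adjusted p = 4e-11) beside -1.21. Irf9 passed the filter with all libraries of a comparison in this one alone, at 0.48 (95% interval -0.35 to 1.31, adjusted p = 0.29), and it was not called in the left-out fits of the others that tested it (adjusted p from 0.61 to 0.9). Irf5 was at -0.24 (adjusted p = 0.31) and was called lower with library totals (-0.50, adjusted p = 0.0344), which shifted the median of all genes from -0.03 to -0.29 and the calls over all genes from 3121 higher and 3172 lower to 1659 and 5523. Over the alternatives the adjusted p of Irf5 in this comparison ranged from 0.0344 to 0.7.

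To compare levels between members, CPM was divided by length in kilobases for the 5 members with a single row. In Veh the order was Irf8 at 154 ± 3.10 CPM per kb (SD, n = 3), Irf2bp2 at 61.9 ± 1.98 (SD, n = 3), Irf2 at 45.2 ± 1.66 (SD, n = 3), Irf2bpl at 17.0 ± 0.563 (SD, n = 3) and Irf4 at 1.32 ± 0.152 (SD, n = 3). No neighbours in that order overlapped. In LPS, Irf2 at 40.2 ± 0.602 CPM per kb (SD, n = 3) lay above Irf2bp2 at 20.7 ± 2.00 (SD, n = 3), the reverse of their order in Veh, while Irf8 at 60.8 ± 1.68 (SD, n = 3) was still above both. In T0+LPS, Irf8 was at 90.6 ± 1.29 CPM per kb (SD, n = 3), and Irf2 (34.8 to 37.4) and Irf2bp2 (29.7 to 39.0) overlapped, so their order could not be told. Irf2bpl (7.35 in LPS and 7.50 in T0+LPS) and Irf4 (0.846 and 0.395) came last in both groups, with no overlap.

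As shares of the summed level per kb of these 5 genes, Irf8 made up 55.2% in Veh, 46.8% in LPS and 53.8% in T0+LPS. Irf2 made up 16.2%, 31.0% and 21.6%. The share of Irf2 in LPS was thus larger although its own level was lower, as the sum itself went from between 276 and 284 CPM per kb in Veh to between 127 and 132 in LPS. In T0+LPS the sum was between 165 and 173.

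**Figure D3:**
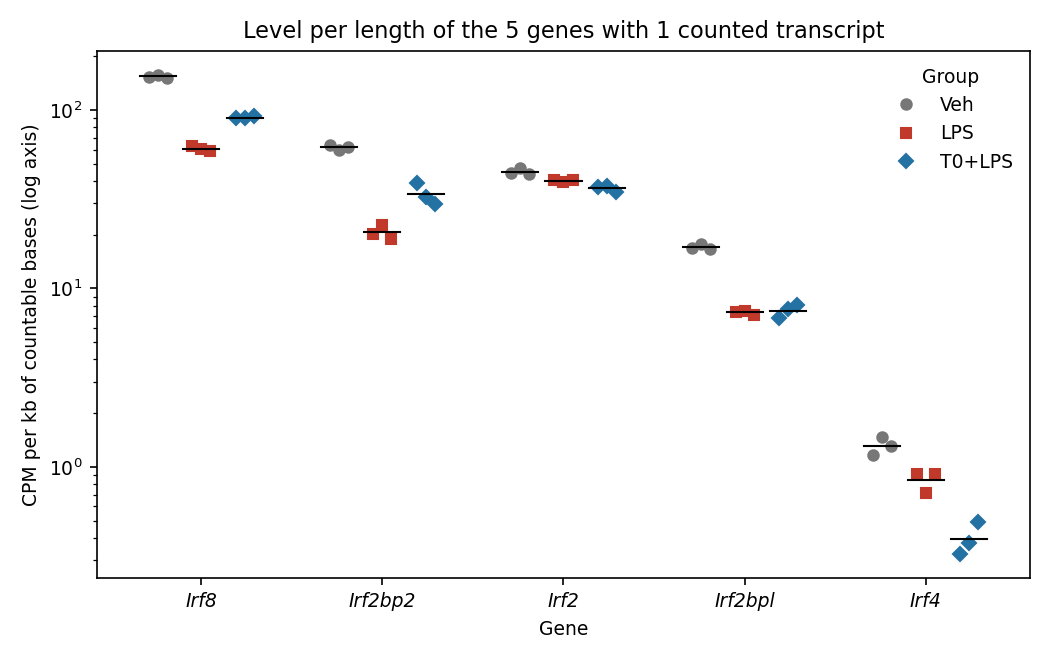
Level in CPM per kb of counted bases, on a log axis, of the 5 members that have a single transcript row, with 1 point per library in Veh, LPS and T0+LPS. Irf8 is highest in every group (154, 60.8 and 90.6), and Irf2 lies below Irf2bp2 in Veh, above it in LPS and among its values in T0+LPS.

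For Irf1 and Irf5 the counted bases separate transcripts that differ at an end. The rows of Irf5 differ in their first exon, at chr6:29526625-29526774 for the upstream and at chr6:29529282-29529483 for the downstream one, both UTR in GENCODE. Reads on the upstream exon numbered 20, 19 and 15 in Veh, 30, 25 and 19 in LPS and 16, 19 and 18 in T0+LPS. On the downstream exon there were 26, 25 and 24 reads in Veh, 7, 10 and 10 in LPS and 9, 13 and 16 in T0+LPS. The upstream exon thus took 41.7 ± 2.82% of the reads of Irf5 in Veh (SD, n = 3), 72.7 ± 7.86% in LPS (SD, n = 3) and 58.8 ± 5.55% in T0+LPS (SD, n = 3), with no overlap between the groups. These shares were looked at after the row values had been seen and are given as a description.

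With the row as the unit, LPS lowered the downstream exon of Irf5 by a log2 fold change of -1.09 (SE 0.29, adjusted p = 0.0035), which held without each library in turn, with DESeq2 and with library totals. The upstream exon was called higher (0.83, SE 0.27, adjusted p = 0.013), but not with library totals (0.55, adjusted p = 0.074), with DESeq2 (0.83, adjusted p = 0.088), without Veh replicate 3 (0.70, adjusted p = 0.057) or without LPS replicate 1 (0.63, adjusted p = 0.086). In T0+LPS against LPS neither row of Irf5 was called, at -0.57 (adjusted p = 0.36) for the upstream and 0.40 (adjusted p = 0.7) for the downstream exon. In T0+LPS against Veh the downstream exon was called lower (-0.72, adjusted p = 0.034), but not with DESeq2 (adjusted p = 0.19) or in 5 of the 6 fits with a library left out: without Veh replicate 1 (0.056), 2 (0.1) or 3 (0.055) or T0+LPS replicate 1 (0.13) or 2 (0.078). The upstream exon was at 0.23 (adjusted p = 0.47) there and turned to -0.03 with library totals. The rows of Irf1 moved alike with LPS: the row that starts at a downstream first exon rose by 2.86 (adjusted p = 7.1e-08) and the row that ends in a downstream last exon rose by 3.11 (adjusted p = 1.6e-06). In T0+LPS against LPS they were at -0.55 (adjusted p = 0.23) and -0.58 (adjusted p = 0.31), and neither was called.

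**Figure D4:**
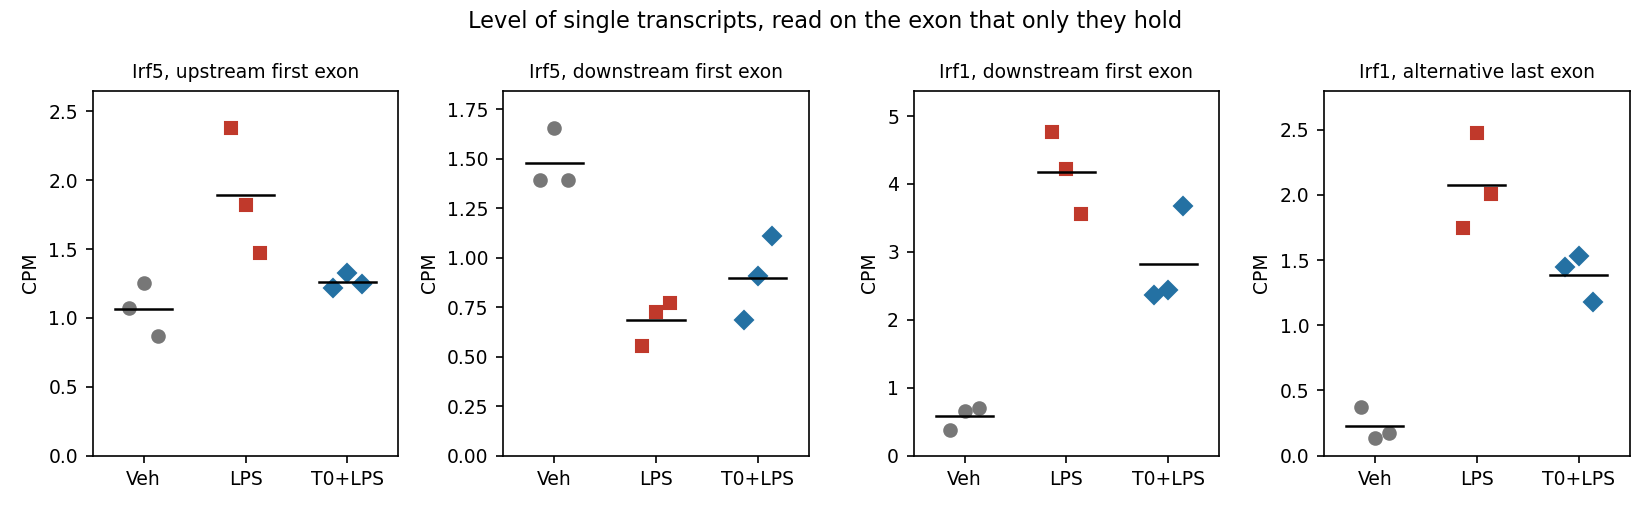
Level in CPM (TMM-scaled) of 4 transcript rows of Irf5 and Irf1, each read on the exon that no other row holds, with 1 point per library and a line at the mean of Veh, LPS and T0+LPS. Both Irf1 rows are higher in every LPS library than in any Veh library, while the downstream first exon of Irf5 lies between 1.391 and 1.654 CPM in Veh and between 0.5552 and 0.7726 CPM in LPS.

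The genes around the family were read in fixed lists by role, beside shares of 32.9% higher and 31.2% lower over all genes tested in LPS against Veh. In the TLR4 and TRIF list, which holds the receptor complex and the kinases of IRF3 and IRF7, 7 of 9 genes tested rose with LPS and 1 fell, with a median log2 fold change of 1.36 (6 and 2 with library totals, median 1.082). Among the 7, Traf3 (means of 0.736 CPM in Veh and 3.07 in LPS) needed LPS libraries to pass the filter on low counts, which favors a higher call. Cd14, the LPS co-receptor, rose by 1.73, and Ikbke, which encodes the kinase IKKε, rose by 1.97, with means of 151 ± 7.53 CPM in Veh and 590 ± 20.0 CPM in LPS (SD, n = 3 each). Tbkbp1, an adaptor of TBK1, fell by 0.39, and Tlr4 itself was at -0.09 and not called, but was called lower with library totals (-0.37) and without LPS replicate 3 (-0.17). In the MyD88 list, 5 of 6 genes rose and 1 fell, with a median of 0.62 (3 and 2 with library totals, median 0.34). Myd88 rose by 1.31 and Traf6 by 0.57, and Irak4 fell by 0.24. The call of Ikbkb (0.81, adjusted p = 0.0061) was lost without LPS replicate 1 (0.54, adjusted p = 0.058) and with library totals (0.53, adjusted p = 0.051), and the highest adjusted p over its alternatives was 0.092. With library totals Slc15a4 turned from 0.16 to -0.12 and was called lower, and Ticam1 of the TRIF list turned from 0.28 to near 0.

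Among the interferon ligands, receptors and JAK-STAT genes, 8 of 10 tested rose with LPS and 0 fell with edgeR (0 lower at an unadjusted p under 0.05, 0 with DESeq2, 0 with limma and 1 with library totals), with a median of 1.28 (1.00 with library totals). Ifnb1, the gene for interferon-β, had no read in Veh and was at 1.34 ± 0.573 CPM (SD, n = 3) in LPS, from 53 reads. Against a floor of 3 counts per Veh library it was at least 7.5-fold higher, and the median of the list was the same with Ifnb1 at that bound. Genes such as Ifnb1 and Jak2 (0.116 CPM in Veh and 1.34 in LPS) passed the filter on low counts only through the LPS libraries. If called, they could only be called higher. The receptor genes Ifnar1 and Ifnar2 rose by 1.28 and 1.29, and Socs3, a feedback inhibitor of JAK-STAT signaling, rose by 9.82. Usp18 (0.31, adjusted p = 0.11) was called higher without the filter on low counts (adjusted p = 0.0099), without Veh replicate 2 (0.022) or without LPS replicate 1 (0.047). Tyk2 and Socs1 were among the genes that did not pass the filter. Of the IRF partners, 4 of 9 rose and 3 fell, with a median of 0.11 that turned to -0.17 with library totals, where 4 were higher and 5 lower, and that lay between -0.0029 (without LPS replicate 3) and 0.15 with a library left out. Bcl6 was called lower there, without the filter on low counts (adjusted p = 0.0085), and without LPS replicate 2 (adjusted p = 0.021) or 3 (adjusted p = 0.047). The counts of the partners lay near the shares over all genes. Spi1, which encodes PU.1, rose by 1.16, with means of 556 ± 3.01 CPM in Veh and 1238 ± 52.1 CPM in LPS (SD, n = 3 each), while Irf8, its partner in the family, fell. Batf, which pairs with IRF4 and IRF8, rose by 3.00, and Vgll4, a known binding partner of IRF2BP2, fell by 2.28.

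Interferon-stimulated genes, taken as targets of ISGF3 or IRF3, included 10 of 14 that rose with LPS and 0 that fell (0 at an unadjusted p under 0.05 with edgeR, 0 with DESeq2 and 0 with limma), with a median of 2.32. With library totals, 9 were higher and 1 lower, with a median of 2.03, and Ifit3 was called higher without the filter on low counts (0.19, adjusted p = 0.031). Cxcl10 rose by 6.73 and Rsad2 by 2.57. Veh replicate 1 lay below the other Veh libraries in many of these genes, with Cxcl10 at 0.802 CPM beside 3.04 and 2.55, and Rsad2 at 28.7 CPM beside 62.5 and 50.6. Replicate 1 was also lowest and replicate 2 highest in the other groups for some of them. Ifit2 was at 94.0, 125 and 115 CPM in LPS and at 84.3, 125 and 91.7 CPM in T0+LPS. For Rsad2, replicate 3 was lowest in LPS. Without Veh replicate 1, 10 of 14 were still called higher, with a median of 2.08, but that fit leaves the order in the other groups as it is. With each of the 6 libraries left out in turn the median was between 2.08 and 2.43. The call of Ifit2 (0.63, adjusted p = 0.019) was lost without LPS replicate 2 (0.53, adjusted p = 0.063), with library totals (0.35, adjusted p = 0.17) and with DESeq2 (0.62, adjusted p = 0.25). Of the known IRF1 targets, 11 of 12 rose and 0 fell (again 0 at an unadjusted p under 0.05, 0 with DESeq2 and 0 with limma), with a median of 1.02 (8 higher and 0 lower with library totals, median 0.74). DESeq2 called 10 higher, without Tap1 (0.99, adjusted p = 0.0078 with edgeR and 0.09 with DESeq2, and at most 0.22 over the alternatives). Il12b, Nos2, Gbp3 and Tap1 (means of 0.0607, 0.153, 0.211 and 0.627 CPM in Veh) passed the filter on low counts only through the LPS libraries. If called, these genes could only be called higher, and Il12b is also among the targets of IRF8 and PU.1. The guanylate-binding protein genes Gbp2 and Gbp5 rose by 3.80 and 8.81, the latter to 699.9 ± 57.8 CPM (SD, n = 3). B2m, Psmb8 and Psmb9 were called with TMM factors and not with library totals, where B2m turned from 0.20 to -0.09. Of the targets shared by IRF8 and PU.1, 4 of 8 rose and 2 fell, with a median of 0.16 that turned to -0.12 with library totals, where 3 were higher and 4 lower. Cybb, the oxidase subunit gene, rose by 1.23, and Klf4 and Tlr9 fell by 1.75 and 0.68. Csf1r turned from 0.26 to -0.03 with library totals and lost its call. The medians stand beside -0.0019 for all genes tested.

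In T0+LPS against LPS, few genes were called among the lists, as over all genes tested (1.35% higher and 1.83% lower). The TLR4 and TRIF list had 0 of 9 calls with edgeR and a median of 0.01 (at an unadjusted p under 0.05, 1 higher and 0 lower; 0 with DESeq2 and 0 with limma). The MyD88 list had 0 of 6 calls and a median of 0.04, and its count was 0 at an unadjusted p under 0.05, with DESeq2 and with limma. The IRF partners had 0 of 9 calls and a median of 0.07 (1 higher and 1 lower at an unadjusted p under 0.05 with edgeR, 0 with DESeq2 and 0 with limma), and Bcl6 was called higher without the filter on low counts (0.26, adjusted p = 0.00028). With a library left out, the median was between -0.02 and 0.05 for the TLR4 and TRIF list and between 0.03 and 0.13 for the partners, with 0 calls in each fit. Spi1 was at 0.03 (95% interval -0.06 to 0.13) and Vgll4 at 0.20 (95% interval -0.21 to 0.62). The interferon-stimulated genes had 0 of 15 calls with edgeR and a median of -0.10 (0 higher and 3 lower at an unadjusted p under 0.05, 1 lower with DESeq2 and 0 with limma). Isg15 (adjusted p = 0.0025) and Ccl5 (0.024) were called lower without LPS replicate 3, and Ifit1 (0.03) without T0+LPS replicate 2. Without the filter on low counts edgeR called all 3 lower (Isg15 and Ifit1 0.0017, Ccl5 0.0068). The median of the list was between -0.21 and 0.02 with a library left out, and its sign turned without T0+LPS replicate 1.

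In the interferon receptor and JAK-STAT list, 1 of 10 genes fell and 0 rose in T0+LPS against LPS, with a median of -0.15 that lay between -0.17 and -0.07 with a library left out (1 higher and 3 lower at an unadjusted p under 0.05 with edgeR; 0 higher and 2 lower with DESeq2, with limma and with library totals). Socs3 fell by 0.39 on the log2 scale (SE 0.06, adjusted p = 0.0025), with means of 625 ± 30.6 CPM in LPS and 478 ± 49.9 CPM in T0+LPS (SD, n = 3 each). Ifnar1 at -0.19 (adjusted p = 0.053) and Ifnar2 at -0.18 (adjusted p = 0.059) were not called, although their T0+LPS libraries all lay below the LPS libraries. Ifnar1 was the second lower call with DESeq2 (adjusted p = 0.024), limma (0.048) and library totals (0.045), and it was also called without the filter on low counts (0.0081), in the fit to all 9 libraries (0.023) and without LPS replicate 2 (0.04) or T0+LPS replicate 3 (0.034). Ifnar2 was called without LPS replicate 3 (0.028) and in the fit to all 9 libraries (0.049). Of the IRF1 targets, 1 of 12 fell, with a median of -0.12 that lay between -0.24 and -0.05 with a library left out (3 lower at an unadjusted p under 0.05 with edgeR, 0 with DESeq2 and 1 with limma). Psmb8 was also called lower without LPS replicate 3 (adjusted p = 0.047) and Il12b without T0+LPS replicate 3 (adjusted p = 0.016), and without the filter on low counts Nos2 (-0.40, adjusted p = 0.00024) and Il12b (-0.21, adjusted p = 0.033) were. Gbp5 was at 521 ± 77.85 CPM (SD, n = 3; log2 fold change -0.43, SE 0.08, adjusted p = 0.009), a call lost without LPS replicate 1 (adjusted p = 0.063) and with DESeq2 (adjusted p = 0.066). Of the targets of IRF8 and PU.1, 1 of 8 rose, with a median of -0.05: Tlr9 rose by 0.34 (SE 0.09, adjusted p = 0.045), with means of 35.6 ± 4.715 CPM in LPS and 45.2 ± 2.66 CPM in T0+LPS (SD, n = 3 each). The call of Tlr9 was lost without LPS replicate 1 (adjusted p = 0.25), T0+LPS replicate 1 (adjusted p = 0.13) or T0+LPS replicate 2 (adjusted p = 0.16), and with library totals (adjusted p = 0.052), which left the list with 0 calls. The median of this list was between -0.06 and 0.005 with a library left out, and Il12b, which it shares with the IRF1 targets, was its 1 lower call without T0+LPS replicate 3. At an unadjusted p under 0.05, 3 genes of this list were lower with edgeR. For Gbp5 and for Tlr9 alike, the highest adjusted p over all alternatives was 0.25.

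**Figure D5:**
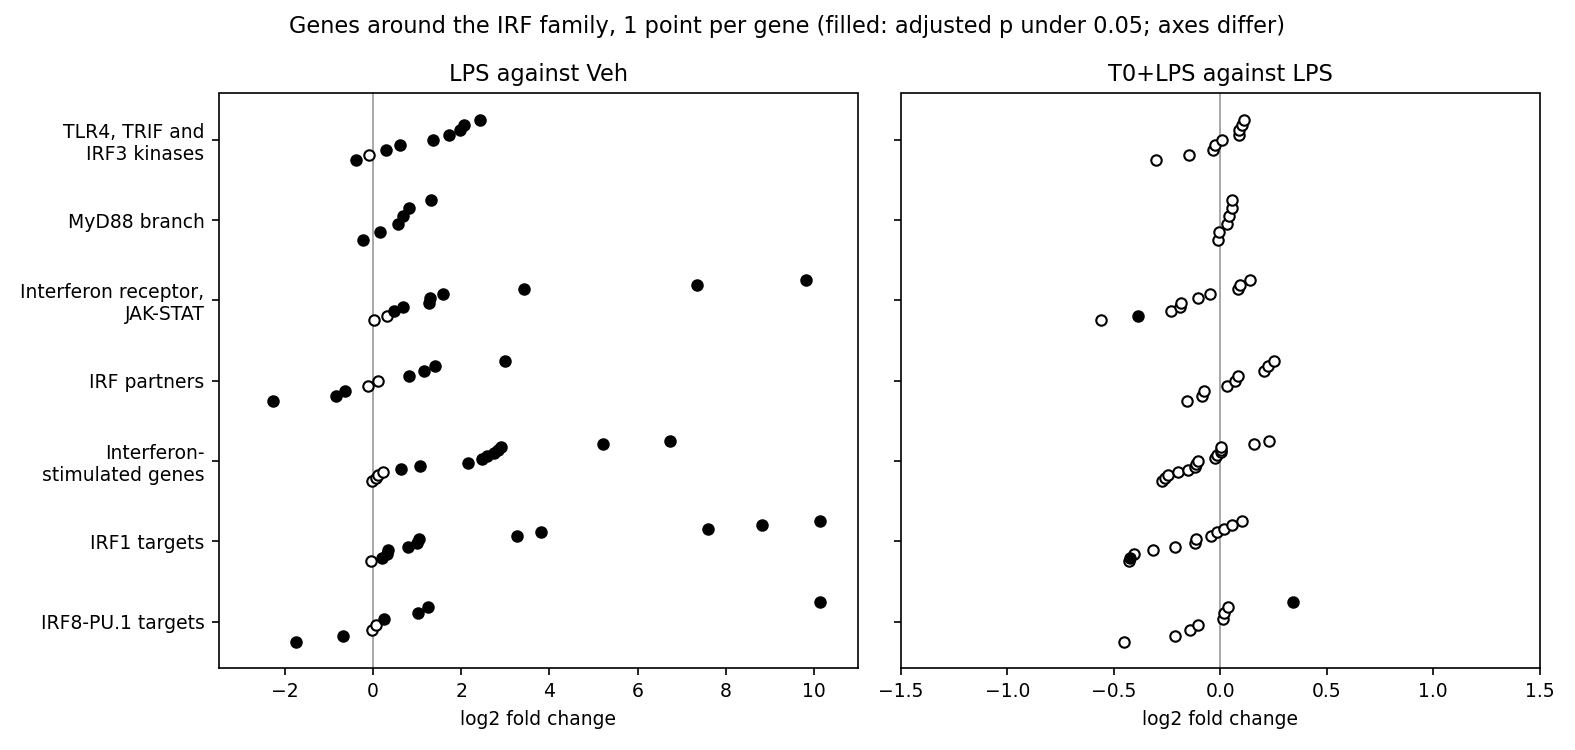
Log2 fold change of the tested genes of 7 lists around the IRF family, 1 point per gene, in LPS against Veh and, on a narrower axis, T0+LPS against LPS, filled where the adjusted p from edgeR was under 0.05. In the first comparison the interferon-stimulated genes have a median of 2.32 with Cxcl10 at 6.73 (Ifnb1, with no read in Veh, is drawn at its fitted value, and small changes such as those of Slc15a4, B2m and Csf1r turn negative with library totals), and in the second Socs3 (-0.39), Gbp5 (-0.43) and Tlr9 (0.34) are filled.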

How the data were processed

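RNA-seq libraries of 9 BMDM cultures were made by the authors, 3 per group. The counts were made by the authors, as deposited: reads were trimmed with cutadapt, aligned to mm10 with HISAT2 and counted per RefSeq transcript with featureCounts, and the kit does not mark strand. Both deposited comparison files hold the authors' own results and were not used. Counts of 32850 rows were summed by gene symbol, low counts were removed with filterByExpr, and libraries were scaled by TMM. Genes were tested with the quasi-likelihood F-test of edgeR 4.0.16 in R 4.3.3, adjusted by Benjamini-Hochberg, and called at an adjusted p under 0.05. Alternatives used DESeq2 1.42.0, limma 3.58.1, other scaling, other filters and each library left out. The fits were tested on simulated data, and the outcome of that is not given here. Bases covered by exactly 1 row were counted from the row coordinates, and GENCODE gave exon features. Named genes are the members, genes of the fixed lists that were called or that are needed to say they were not, and the 3 genes nearest in profile to each member tested in LPS against Veh. Protein sequences were not among the references used here. Members and lists were chosen with earlier results of these data known. The alternatives for the transcript rows of Irf1 and Irf5 and the left-out libraries for the lists and markers were added after their values had been seen. Figures were drawn with matplotlib 3.10.9.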

Additional observations from a re-analysis of the deposited data

How the results depend on the processing

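Of 364 values of members under the alternatives, 348 kept their direction and side of the threshold, 4 were weaker, 4 stronger and 8 reversed. Library totals gave -0.11 for Irf3 and -0.26 for Irf5 in LPS against Veh, with 1694 genes higher and 5411 lower, and 1659 and 5523 in T0+LPS against Veh. With the transcript row as the unit, 2 members were higher in LPS against Veh, and Irf5 was at 0.23 in T0+LPS against Veh; for Irf5 both refer to its upstream row alone, while its downstream row was lower in both (-1.09 and -0.72). In T0+LPS against LPS, no filter gave 225 genes higher and 285 lower, and 2 members were lower with no filter, with all 9 libraries or at an adjusted p under 0.10. Over all genes, replicate numbers showed no pairing of the samples (correlations from -0.014 to 0.046). In Ifit2, Ifit3 and Oasl2, however, replicate 1 was lowest and replicate 2 highest in every group, while Ccl5 and Ifih1 did not keep that order. Whether replicate numbers pair the samples for such genes was not tested. With the number as a block, DESeq2 called 3 members lower in LPS against Veh (without Irf4, adjusted p = 0.069, and Irf2, 0.099), 70 genes higher and 83 lower with 0 members lower in T0+LPS against LPS (Irf4 had no adjusted p), and 1991 genes lower in T0+LPS against Veh. The block in edgeR gave 155 higher and 230 lower in T0+LPS against LPS, with Isg15, Ifit1, Ccl5, Nos2 and Ifnar1 among the lower. With each library left out, Irf3 in LPS against Veh ranged from -0.22 to 0.45 and Irf5 from -0.0751 to 0.12, and Irf2bpl in T0+LPS against LPS from -0.0229 to 0.10. In T0+LPS against LPS, calls over all genes then ranged from 59 to 167 higher and from 82 to 191 lower, and members lower from 0 to 1. Apart from the smaller number of libraries or genes in some fits, the cause was not tested. Irf3, Irf5 and Irf9 held 110, 321 and 87 reads, on 158, 352 and 229 countable bases.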

Other observations

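Profiles over the 9 libraries were compared by the root mean square difference of centered log2 CPM, among 7300 genes with a mean of at least 5 CPM. Nearest to Irf8 were Calhm2 (0.0981), Tbl2 (0.122) and Polk (0.122), where Calhm2 had means of 37.9 CPM in Veh, 17.1 in LPS and 24.2 in T0+LPS. For Irf2bp2 they were 1700017B05Rik (0.155), Irf8 (0.158) and Tmem86a (0.166). Irf2bpl lay closest to Sgsh (0.0467), Bivm (0.0533) and Klf9 (0.0569). The genes for Irf4 were Efr3b (0.306), Kif20b (0.309) and Klhl36 (0.323). Irf1 was nearest to E2f8 (0.131), Rhou (0.148) and Gadd45b (0.154), and Irf2 to Tnip2 (0.0315), Abcd3 (0.0437) and March6 (0.0477). Both sparsely read members, Irf5 and Irf3, had Aldh1l1 (0.0645), Gtpbp10 (0.0725) and Nudt2 (0.09) for Irf5 and Dync2h1 (0.332), Gm1821 (0.357) and Hdac4 (0.365) for Irf3. These values describe the same libraries as the report, and a shared function was not tested.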
